A study of Homo sapiens with 6 samples.

Results

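Translation initiation factors are the proteins that bring the initiator tRNA, the mRNA and the ribosomal subunits together at a start codon. The genes described here are the protein-coding genes of the deposited count table whose symbol begins with EIF and a digit, without the alpha subunit of eIF2 and without the eIF2 kinases, which gives 49 of 24960 genes. The rule used names only, not measured values. Hyperoside, a flavonol glycoside from plants, was tested in K562 cells, a human chronic myeloid leukemia line that carries BCR::ABL1 and grows in suspension. Total RNA was sequenced from 3 control libraries and 3 hyperoside (2 mM) libraries, and the question of the comparison was which transcripts the compound changes. The time of treatment is not given in the sources used here. All libraries come from 1 cell line with the same disease label and no other agent, and nothing says that the replicates were separate cultures, so p-values measure the spread between libraries, which may be technical.

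Initiation runs in a fixed order. eIF2 carries the initiator tRNA to the small ribosomal subunit together with eIF1, eIF1A, eIF3 and eIF5, the cap complex eIF4F (cap-binding eIF4E, helicase eIF4A, scaffold eIF4G) recruits the mRNA, and the complex scans to the start codon, where eIF5B joins the large subunit. eIF2B recharges eIF2 with GTP, and the 4E-BPs, controlled by mTOR, hold eIF4E away from eIF4G. Not every gene that carries an EIF symbol is an initiation factor in this sense. EIF5A and its relatives promote elongation, EIF6 acts on the large subunit, EIF4A3 belongs to the exon junction complex, EIF4ENIF1 carries eIF4E into the nucleus, and the EIF4EBP genes encode inhibitors.

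The start codons of these genes are themselves of interest, since initiation factors read them. The start codon could be placed for 46 of the 49 genes in GENCODE 29 on GRCh38, and 45 of them start at ATG. EIF4G2 was the exception, with a GTG at chr11:10807293-10807295 on the minus strand. Of the 46, 39 have a purine 3 bases before the codon, the base that most favours recognition, and 7 do not, among them EIF1 and its paralog EIF1B. The sequences below are those of the 3 eIF4G paralogs, of the EIF1 pair and of gene pairs whose reads are hard to tell apart, with 12 bases before the start codon, the codon in capitals and 6 bases after it, read 5′ to 3′ on the coding strand.
EIF4G1: gcaccaaatgaaATGaacaaa
EIF4G2: caagccgccaaaGTGgagagt
EIF4G3: acccctcagacaATGaattca
EIF1: gaatcgtatcgtATGtccgct
EIF1B: cactagtatcgcATGtccact
EIF3C: cgcgccgtcgccATGtcgcgg
EIF3CL: cgcgccgtcgccATGtcgcgg
EIF5A: aagcctcttaaaATGgcagat
EIF5AL1: aagcctcttaaaATGgcagat
The last 4 lines show that EIF3C and EIF3CL, and likewise EIF5A and EIF5AL1, are identical over this window. Over the aligned coding sequence EIF3C and EIF3CL were identical at 100% of 2739 bases, EIF5A and EIF5AL1 at 98.9%, and EIF2S3 and EIF2S3B at 98.2%. How reads that match both copies were counted is not given in the sources used here, so the split of counts within each of these pairs is uncertain. If such reads were left out, the sum of a pair would miss them too.

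The libraries held 35613283 to 36754725 counts on genes. Levels of 1 gene between libraries are given in CPM, counts scaled to the TMM-adjusted library total, and levels of different genes in FPKM, the authors' values scaled to gene length and to the plain library total. Fold changes are hyperoside over control from edgeR's quasi-likelihood test on the counts, with Benjamini-Hochberg adjustment over 15095 tested genes, and a gene was called at an adjusted p under 0.05. A differentially expressed gene (DEG) also needed a fold change above 2. The 7 markers of K562 cells used (4 globins, GATA1, TAL1 and KLF1) were all detected. Their summed level was 4928 to 6367 CPM in the control and 3604 to 4384 CPM in the hyperoside libraries. Mean CPM fell from 3031 to 2208 for HBE1, from 1302 to 748 for HBG2 and from 461 to 252 for HBG1. It was 321 and then 335 for HBZ, 141 and 135 for GATA1, and 148 and 153 for TAL1. KLF1 had a mean of 37.2 and then 72.3 CPM. The labels name bone as the tissue, but 4 osteoblast markers summed to at most 3.50 CPM in any library, with BGLAP and SP7 at 0 to 7 counts. T cell markers summed to 28.9 to 43.2 CPM, nearly all from CD3D, and B cell markers to 2.26 to 3.16 CPM. In bulk RNA, fewer cells of a kind and less RNA per cell cannot be told apart, and the part of the lower marker sum in the results that follow was not tested.

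Of the 49 genes, 47 passed the filter on low counts. Hyperoside lowered 11 of them, with EIF4EBP1, EIF2S2, EIF4E and EIF5A2 moving most, and raised 2, EIF4G2 and EIF3C. The 11 called lower are 23.4% of the tested members, beside 23.2% of all tested genes, and the 2 called higher are 4.26%, beside 22.1%. None of the 47 was a DEG by edgeR, beside 10.2% of all tested genes. An unadjusted p under 0.05 by edgeR was found for 21 of the 47, beside 7878 of the 15095 tested genes. Among these 47 the largest change, that of EIF4G2, stayed at 0.80 to 0.90 on the log2 scale in all fits tried. With no filter on low counts, EIF4E1B, which has at most 9 counts in a library, became a DEG on the lower side (adjusted p = 0.0393 by edgeR, and 0.0509 by DESeq2). The 3 libraries of each group did not overlap for 16 of the 47 on the lower side and for 5 of the 47 on the higher side. Over all 15095 tested genes this held for 4116 on the lower side (27.3%) and 4096 on the higher side (27.1%). Scaling by library totals alone changed the split to 7 lower and 8 higher, with 9 of these calls shared. Over all 15095 tested genes, that scaling gave 2961 lower and 3726 higher, beside 3508 and 3333 in the fit reported. The 6 further members called higher with library totals were EIF2B4, EIF3A, EIF3F, EIF4EBP2, EIF4G1 and EIF4G3.

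Most of these transcripts moved little. The median log2 fold change of the 47 was -0.07, beside 0.00 over all tested genes, and the median size of the change was 0.15, beside 0.33. All tested genes were not matched to the members in expression, and their median SE was 0.115, beside 0.079 for the 47. The change stayed within 0.25 on the log2 scale for 38 members and passed 0.5 for 4. As a share of all counts in the library, the 49 genes held 1.22% ± 0.00557 (SD, n = 3) in the control and 1.22% ± 0.00649 in the hyperoside group.

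**Figure D1:**
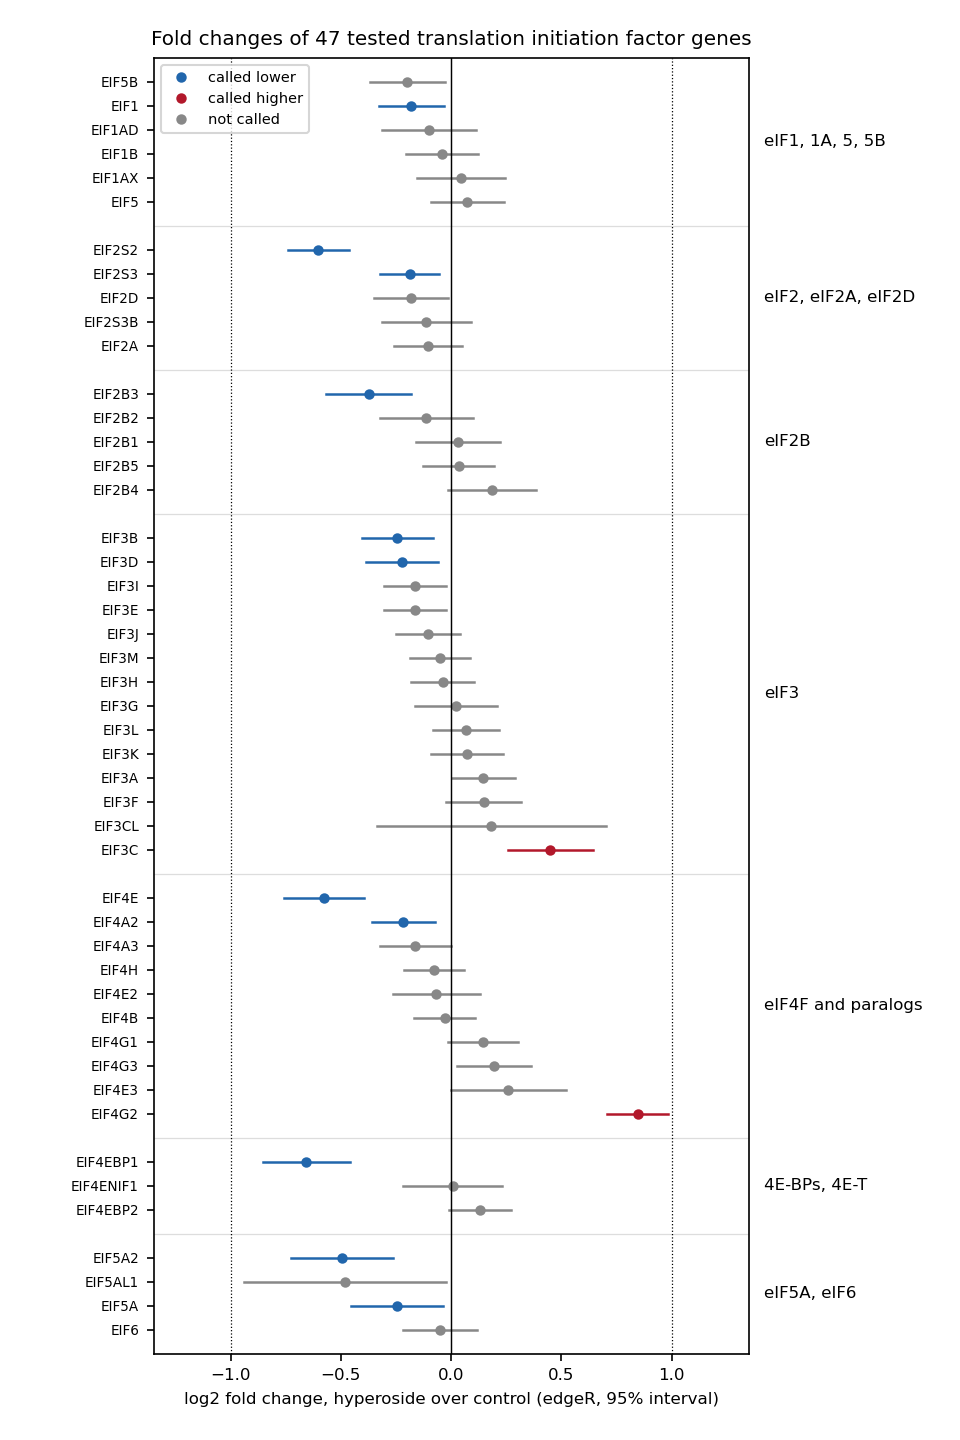
Log2 fold change of each of the 47 tested genes, hyperoside over control, by role. Points are edgeR estimates from 3 libraries a group, lines are 95% intervals, colours show the calls, and dotted lines mark a 2-fold change. EIF4G2 at 0.85 and EIF4EBP1 at -0.66 lie farthest out, and 38 of the 47 lie within 0.25 of 0.

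The largest change among the 47 tested members was that of EIF4G2 (also known as DAP5), a scaffold that resembles eIF4G but lacks the part that binds eIF4E and serves cap-independent and alternative initiation. The gene lies at chr11:10797046-10808926, and its level was 434, 447 and 442 CPM in the control libraries and 778, 840 and 759 CPM in the hyperoside libraries. The hyperoside libraries lay far above all controls, by a factor of 1.80 (log2 fold change 0.85 ± 0.07 (SE), adjusted p = 2.16e-08 by edgeR). Its exons overlap those of CTR9 on the opposite strand and host SNORD97, and the use of strand in counting is not given in the sources used here.

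EIF4G1, which bridges eIF4E, eIF4A and eIF3, was at 489, 440 and 426 CPM in the control and 479, 542 and 476 CPM in the hyperoside libraries. These groups overlapped, and the log2 fold change of 0.14 ± 0.08 (SE) was not called (adjusted p = 0.129 by edgeR). EIF4G3, a close paralog of EIF4G1, was at 66.0, 74.9 and 71.9 CPM and then at 85.9, 78.4 and 79.3 CPM. All hyperoside libraries were above all controls for EIF4G3, but with a log2 fold change of 0.20 ± 0.08 (SE) it missed the threshold at an adjusted p of 0.0547 by edgeR.

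Because these scaffolds differ in length, their levels were set side by side in FPKM. EIF4G2 was at 102 FPKM ± 3.68 (SD, n = 3) in the control, above EIF4G1 at 71.7 ± 3.50 and EIF4G3 at 8.07 ± 0.671. In the hyperoside group EIF4G2 reached 190 FPKM ± 10.6, EIF4G1 82.1 ± 6.24 and EIF4G3 9.56 ± 0.550. The share of EIF4G2 in the summed FPKM of the 3 scaffolds was 54.1%, 56.8% and 57.4% in the control libraries and 67.7%, 67.1% and 67.5% in the hyperoside libraries. The ratio of EIF4G2 to EIF4G1, chosen after its values were seen and given as a description, rose from a range of 1.29 to 1.51 to one of 2.25 to 2.37. EIF4G1 over EIF4G3 differed by -0.05 on the log2 scale (two-sided exact permutation p = 0.7).

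EIF4E, the cap-binding protein, lies at chr4:98879276-98929133 and moved the other way. It was at 87.5, 106 and 103 CPM in the control libraries and at 66.4, 69.8 and 62.8 CPM in the hyperoside libraries. The groups were well apart, and the mean of EIF4E fell by 33.0% (log2 fold change -0.58 ± 0.09 (SE), adjusted p = 2.96e-05 by edgeR). Its paralog EIF4E2 (4EHP), which binds the cap without eIF4G and represses translation, was at 50.6, 46.3 and 43.2 CPM and then at 42.6, 42.0 and 49.1 CPM. EIF4E2 overlapped between groups and was not called (log2 fold change -0.07, adjusted p = 0.589 by edgeR). The FPKM ratio of EIF4E to EIF4E2 was 2.27, 2.997 and 3.15 in the control and 2.05, 2.18 and 1.68 in the hyperoside libraries, without overlap. That difference of -0.51 on the log2 scale had a two-sided exact permutation p of 0.1, the smallest that 3 against 3 libraries allow, and 0.3 after adjustment over the 6 ratios computed.

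Of the helicase side, EIF4A2, an eIF4A helicase also linked to microRNA repression, was at 561, 592 and 558 CPM in the control and 516, 458 and 498 CPM in the hyperoside libraries. All hyperoside libraries were below all controls, by -0.22 ± 0.07 (SE) on the log2 scale (adjusted p = 0.0150 by edgeR). EIF4A2 hosts several small nucleolar RNAs and overlaps RFC4 on the opposite strand. The helicase cofactors EIF4B and EIF4H were not called, with log2 fold changes of -0.03 and -0.08. EIF4A3 (-0.16, adjusted p = 0.0909 by edgeR) and EIF4E3, a further cap-binding paralog at 1.64 FPKM in the control (0.26, adjusted p = 0.0998), were not called either. EIF4E1B, the form of eIF4E known from oocytes, had 9, 1 and 5 counts in the control libraries and 0 in each hyperoside library, where a count of 0 allows up to 3 counts per library, and it did not pass the filter on low counts.

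The inhibitors of eIF4E changed unequally. EIF4EBP1, the 4E-BP best known as an mTORC1 substrate, was at 86.0, 68.9 and 68.4 CPM in the control libraries and at 45.7, 48.5 and 47.3 CPM in the hyperoside libraries. The hyperoside libraries were close to each other and all below the controls (log2 fold change -0.66 ± 0.09 (SE), adjusted p = 1.92e-05 by edgeR). EIF4EBP2 was at 247, 265 and 259 CPM and then at 274, 290 and 280 CPM, higher in every hyperoside library. Its log2 fold change of 0.13 ± 0.07 (SE) was not called (adjusted p = 0.124 by edgeR). EIF4EBP3 had 12, 12 and 7 counts in the control and 6, 6 and 1 in the hyperoside libraries, too few for the test, and its exons are shared with the ANKHD1-EIF4EBP3 readthrough gene. EIF4ENIF1 was level, at a log2 fold change of 0.01.

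The 3 EIF4EBP genes together held 122 FPKM ± 7.95 (SD, n = 3) in the control and 96.4 FPKM ± 2.58 in the hyperoside group. EIF4EBP1 made up 75.6%, 69.9% and 70.4% of this in the control libraries and 60.0%, 60.1% and 60.5% in the hyperoside libraries. Summed EIF4EBP FPKM over EIF4E FPKM was 4.72, 3.38 and 3.41 in the control and 4.17, 4.20 and 4.52 in the hyperoside libraries. EIF4EBP1 and EIF4E both fell, and this ratio overlapped between the groups, with a difference of 0.18 on the log2 scale (two-sided exact permutation p = 0.4).

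**Figure D2:**
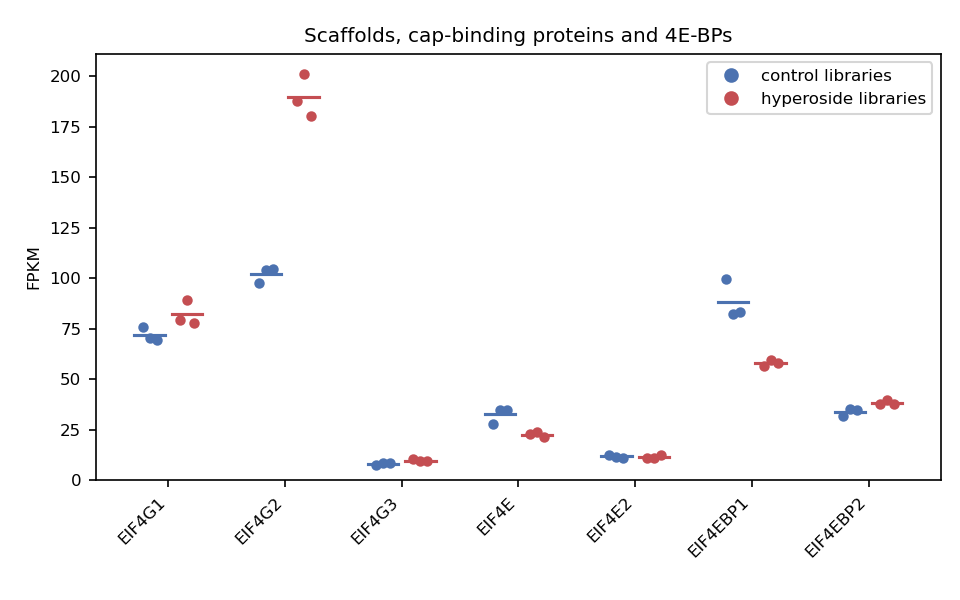
FPKM of the eIF4G scaffolds, the cap-binding proteins and the main 4E-BPs in each library. Points are libraries and bars are group means of 3. EIF4G2 rose from 102 to 190 FPKM, EIF4E fell from 32.4 to 22.5 FPKM and EIF4EBP1 from 88.3 to 58.0 FPKM, and EIF4E2 was at 11.6 and 11.5 FPKM with overlapping libraries.

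Of the 5 genes of the eIF2 group, 2 were called, both lower (40.0%, beside 23.2% of all tested genes). All 5 had a negative log2 fold change, as had 7513 of the 15095 tested genes, and EIF2S3B is a near-identical copy of EIF2S3, so the 5 are not separate measurements. EIF2S2, the beta subunit of eIF2 that binds eIF5 and eIF2B, lies at chr20:34088309-34112243. It was at 391, 373 and 379 CPM in the control libraries and at 253, 245 and 254 CPM in the hyperoside libraries. Libraries within a group lay within a few percent of each other and the groups were far apart, and the mean of EIF2S2 fell by 34.2% (log2 fold change -0.60 ± 0.07 (SE), adjusted p = 9.11e-07 by edgeR). EIF2S3, the gamma subunit that binds GTP and the initiator tRNA, was lower by -0.19 ± 0.06 (SE) on the log2 scale (adjusted p = 0.0218). Counted together with its copy EIF2S3B, an alternative added after seeing the data, it was at -0.18 (adjusted p = 0.0203 by edgeR).

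The beta and gamma subunits sit in eIF2 in equal numbers, but their transcripts did not move equally. EIF2S3 over EIF2S2 in FPKM was 1.90, 1.98 and 1.97 in the control and 2.60, 2.55 and 2.64 in the hyperoside libraries, a ratio chosen after its values were seen and given as a description. EIF2A and EIF2D, proteins that can deliver initiator tRNA without eIF2, were not called (log2 fold changes -0.11 and -0.18, adjusted p = 0.257 and 0.0722 by edgeR). The summed level of the group was 440 FPKM ± 7.02 (SD, n = 3) in the control and 373 FPKM ± 12.7 in the hyperoside group.

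Of the 5 subunits of eIF2B, the exchange factor that reloads eIF2, EIF2B3 was the one called. This gamma subunit, part of the catalytic portion, was at 84.4, 75.0 and 67.9 CPM in the control and 58.6, 62.9 and 53.9 CPM in the hyperoside libraries. Each hyperoside library was below each control (log2 fold change -0.37 ± 0.09 (SE), adjusted p = 0.00296 by edgeR). EIF2B1, EIF2B2, EIF2B4 and EIF2B5 were not called, with adjusted p from 0.125 to 0.806 by edgeR. Their log2 fold changes were 0.03, -0.11, 0.18 and 0.04. EIF2B4 was called higher with library totals, with FPKM and without control replicate 1. Summed over the 5 subunits, the level was 120 FPKM ± 8.87 (SD, n = 3) in the control and 122 FPKM ± 4.04 in the hyperoside group.

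eIF3, the largest initiation factor, joins the small subunit to eIF4G and held 14 of the genes. Its summed level was 1709 FPKM ± 56.5 (SD, n = 3) in the control and 1709 FPKM ± 26.2 in the hyperoside group. Within this level sum, 7 subunits had a positive and 7 a negative log2 fold change. EIF3G and EIF3CL turned negative without some libraries, and EIF3H positive with library totals or FPKM. Of the 14, 2 were called lower (14.3%, beside 23.2% of all tested genes) and 1 higher (7.14%, beside 22.1%). EIF3C, a core subunit that contacts eIF1, eIF2 and eIF5, was at 40.1, 42.3 and 36.9 CPM in the control libraries and 58.5, 49.2 and 55.1 CPM in the hyperoside libraries. All hyperoside libraries were higher (log2 fold change 0.45 ± 0.09 (SE), adjusted p = 6.46e-04 by edgeR).

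The level of EIF3C was far below that of its partners. In the control it was at 10.9 FPKM ± 0.688 (SD, n = 3), beside 25.1 FPKM for EIF3F and 65.3 to 349 FPKM for the 11 other subunits without its copy EIF3CL, which stood at 0.866 FPKM. EIF3C (chr16:28688558-28735730) and EIF3CL (chr16:28379581-28426418) share their coding sequence over the aligned bases, so the level of each is uncertain. Summed over the pair, the counts gave 43.2, 45.1 and 39.5 CPM in the control and 61.9, 53.3 and 57.4 CPM in the hyperoside libraries. That sum, added after seeing the data, was higher by 0.44 ± 0.09 (SE) on the log2 scale (adjusted p = 6.97e-04 by edgeR). It consists mostly of the counts of EIF3C, so it is not a separate measurement of the change.

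Among the other core subunits, EIF3B, a scaffold near the mRNA entry, was at 496, 450 and 442 CPM in the control and 362, 432 and 377 CPM in the hyperoside libraries. EIF3D, a subunit able to bind the cap of certain mRNAs, was at 329, 294 and 270 CPM and then at 248, 251 and 265 CPM. Both were lower in every hyperoside library, although the nearest libraries of the groups almost met. The log2 fold changes were -0.24 ± 0.08 (SE) for EIF3B and -0.22 ± 0.08 for EIF3D (adjusted p = 0.0148 and 0.0245 by edgeR). EIF3E and EIF3I just missed the threshold, with log2 fold changes of -0.16 each and adjusted p of 0.0547 and 0.0557 by edgeR, and EIF3A, the largest subunit, stood at 0.15 (adjusted p = 0.0882).

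**Figure D3:**
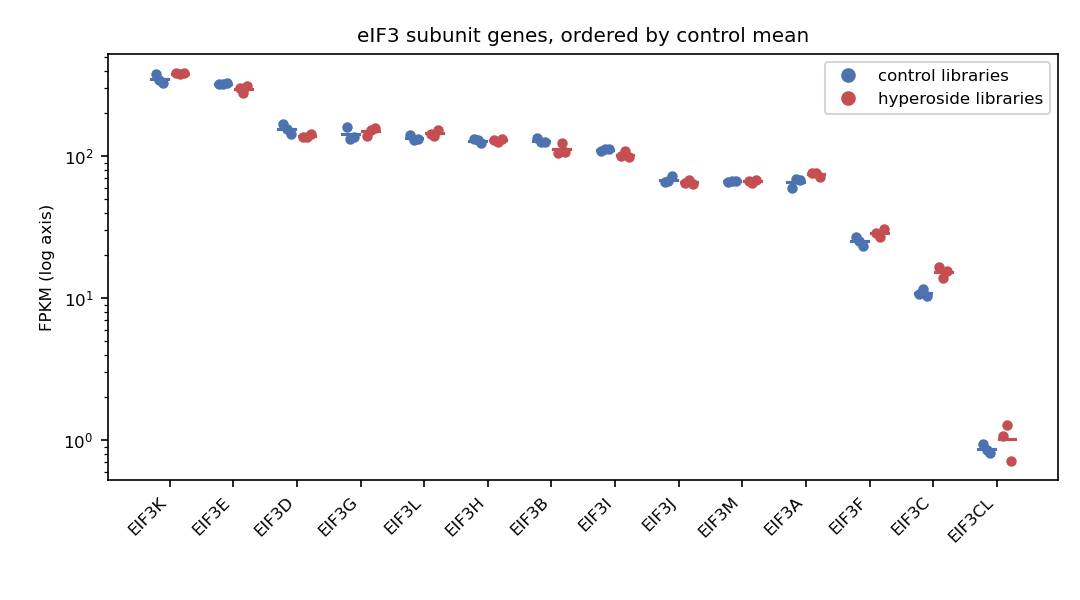
FPKM of the 14 eIF3 subunit genes in each library on a log axis, ordered by control mean. Points are libraries and bars are group means of 3. EIF3K is highest at 349 FPKM in the control, and EIF3C at 10.9 FPKM and its copy EIF3CL at 0.866 FPKM stand below the rest.

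Of the 6 genes grouped under scanning and subunit joining, 1 was called, on the lower side (16.7%, beside 23.2% of all tested genes). EIF1, which keeps the scanning complex from stopping at poor start codons, was among the most abundant members at 409 FPKM ± 8.57 (SD, n = 3) in the control. It was at 1012, 944 and 963 CPM in the control and 866, 791 and 920 CPM in the hyperoside libraries. The hyperoside libraries were lower without overlap, by -0.18 ± 0.07 (SE) on the log2 scale, and the adjusted p of 0.0428 lay near the threshold (edgeR). EIF1B, which is 82.0% identical to EIF1 in coding sequence, was at 122, 109 and 114 CPM and then at 115, 102 and 118 CPM, with overlap (log2 fold change -0.04, adjusted p = 0.694 by edgeR).

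EIF5, which activates GTP hydrolysis by eIF2 at the start codon, was at 232, 261 and 270 CPM in the control and 260, 292 and 251 CPM in the hyperoside libraries. Its groups overlapped (log2 fold change 0.07, adjusted p = 0.470 by edgeR). The FPKM ratio of EIF5 to EIF1, factors with opposing effects on the stringency of start selection, was 0.0892, 0.108 and 0.109 in the control and 0.117, 0.144 and 0.106 in the hyperoside libraries, with overlap (two-sided exact permutation p = 0.3). EIF1 over EIF1B was 3.49, 3.65 and 3.57 and then 3.19, 3.26 and 3.28, lower without overlap by -0.14 on the log2 scale (two-sided exact permutation p = 0.1, 0.3 adjusted over the 6 ratios). EIF5B, the GTPase of subunit joining, missed the threshold at a log2 fold change of -0.20 (adjusted p = 0.0514 by edgeR), and EIF1AX and EIF1AD were not called at 0.04 and -0.10.

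EIF5A carries the amino acid hypusine and helps ribosomes through difficult sequences. It was at 412, 339 and 316 CPM in the control and 271, 345 and 282 CPM in the hyperoside libraries. Hyperoside replicate 2 lay above the lower controls, and the call was marginal (log2 fold change -0.25 ± 0.10 (SE), adjusted p = 0.0499 by edgeR, and 0.0484 with EIF5AL1 added in). EIF5A2, a paralog with 74.6% identical coding sequence, was at 21.9, 24.8 and 28.4 CPM and then at 18.3, 17.3 and 17.6 CPM. EIF5A2 fell without overlap (log2 fold change -0.50 ± 0.11 (SE), adjusted p = 0.00132 by edgeR). It is the minor form in FPKM, at 4.45 ± 0.682 (SD, n = 3) beside 96.6 ± 11.3 for EIF5A in the control, and the ratio of EIF5A to EIF5A2 overlapped between groups (two-sided exact permutation p = 0.4). EIF6, which keeps the ribosomal subunits apart, was not called at -0.05 on the log2 scale.

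**Figure D4:**
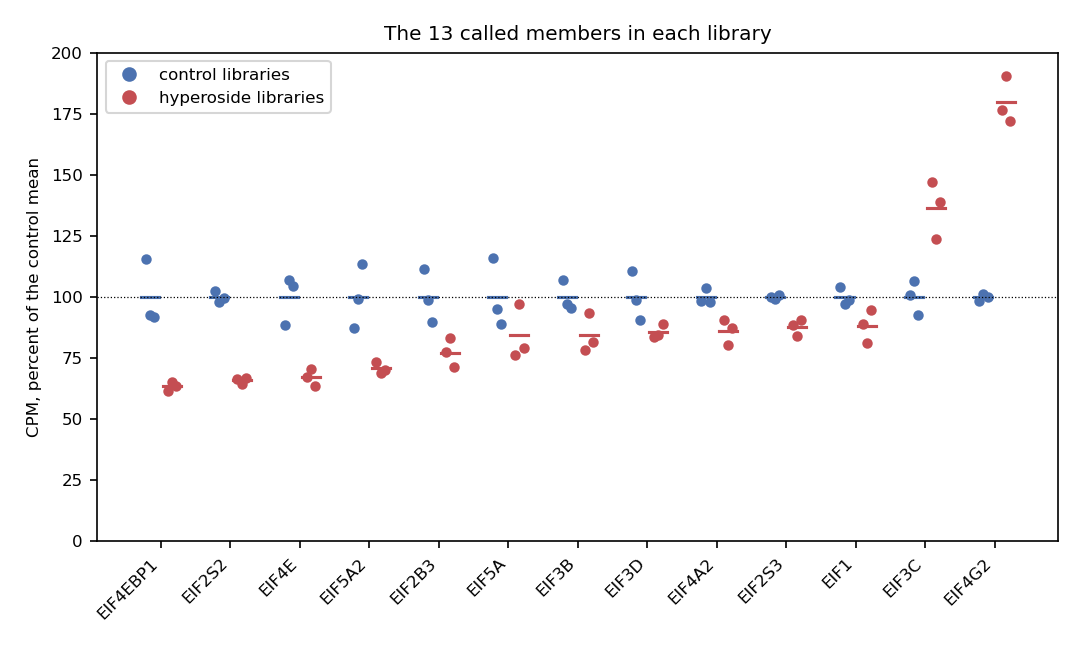
CPM of the 13 called genes in each library as a percent of the control mean, ordered by fold change. Points are libraries and bars are group means of 3. EIF5A is the gene whose groups overlap, and the hyperoside libraries of EIF4EBP1, EIF2S2, EIF4E and EIF5A2 lie below all their controls by a clear gap.

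The calls were not equally firm. EIF4G2, EIF3C, EIF4EBP1, EIF2S2, EIF4E, EIF5A2 and EIF2B3 stayed called in the same direction in all alternatives tried, 7 of the 13. The other calls were lost in some or most alternatives, with log2 fold changes that stayed negative. EIF3B kept its call in 10 of 13 alternatives, EIF4A2 in 9 of 13 and EIF2S3 in 7 of 14. EIF3D kept it in 5 of 13, EIF5A in 5 of 14 and EIF1 in 4 of 13. The count of members called lower was 6 without control replicate 2 and likewise without hyperoside replicate 1, and the count called higher was 6 without control replicate 1. Over all tested genes, 3045 and 2858 were called lower in the first and second of those fits, beside 3508 in the fit reported. A total of 3549 were called higher without control replicate 1, beside 3333.

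The promoters of the members were searched as background to these calls, with RefSeq sequences on GRCh38.p14 that cover 250 bases before to 50 after the start and that matched 41 of the 49 genes. The E-box CACGTG, a palindrome bound by MYC and its relatives, was found in 11 of the 41 (26.8%), beside 7.43% of 27305 promoters of the same length. It occurs at 2 places in each of 3 promoters, those of EIF4E and EIF5A2, both called lower, and of EIF4G1, which was not called and had a log2 fold change of 0.14. The 250 bases before the starts of the called pair are shown with the E-box in capitals, for EIF4E at chr4:98929134-98929383 and for EIF5A2 at chr3:170908638-170908887, both on the minus strand and written 5′ to 3′.
EIF4E: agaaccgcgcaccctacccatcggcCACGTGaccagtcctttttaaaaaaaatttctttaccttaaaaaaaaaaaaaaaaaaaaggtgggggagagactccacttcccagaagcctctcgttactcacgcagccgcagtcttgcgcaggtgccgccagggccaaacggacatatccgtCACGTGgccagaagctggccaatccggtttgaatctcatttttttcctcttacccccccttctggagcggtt
EIF5A2: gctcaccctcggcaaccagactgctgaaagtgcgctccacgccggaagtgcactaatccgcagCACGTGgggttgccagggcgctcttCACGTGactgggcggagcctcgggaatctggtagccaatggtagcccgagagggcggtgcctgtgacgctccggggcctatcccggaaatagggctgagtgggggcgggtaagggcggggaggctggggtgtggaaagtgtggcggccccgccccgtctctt
The E-boxes begin 225 and 72 bases before the start of EIF4E and 187 and 162 bases before that of EIF5A2. Of the 10 tested members with an E-box, 3 were called lower and 0 higher, with a median log2 fold change of -0.06, beside 6 lower and 2 higher of 29 without one and a median of -0.10. A match is a stretch of letters, not a measured binding site. The 27305 promoters were not matched to the members in expression or GC content, here or for the motifs below.

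Motifs were searched on both strands and counted whether or not they overlapped another. The GC box GGGCGG was in 29 of the 41 member promoters (70.7%) and in 44.6% of all. The letters TGATGNAA, the core of sites for ATF4 with CEBP partners, were in 0 of the 41 and in 3.67% of all. A start at C followed by 4 pyrimidines, the mark of mRNAs whose translation follows mTORC1, was annotated in 10 of the 41 (24.4%), beside 4.04% of all promoters. Of these 10 members, which include EIF2S3 and its copy EIF2S3B, 3 were called lower and 0 higher, with a median log2 fold change of -0.11. Of the 29 others that were tested, 6 were called lower and 2 higher, with a median of -0.07. These counts also leave out EIF4EBP1 and EIF2S2, and stand beside 23.2% lower and 22.1% higher over all tested genes.

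In a list of 25 partners and regulators of initiation, 8 were called lower (32.0%, beside 23.2% of all genes) and 7 higher (28.0%, beside 22.1%). PAIP2B, a repressor of poly(A)-binding protein, was lower by -1.17 ± 0.32 (SE) on the log2 scale (adjusted p = 0.00688 by edgeR) at a low level of 2.35 CPM in the control, and was the DEG of the list. RPTOR, the mTORC1 subunit that recruits 4E-BPs, was higher by 0.56 ± 0.09 (SE) on the log2 scale, and PABPC4, a poly(A)-binding protein, by 0.55 ± 0.07 (SE). Both passed the test, with adjusted p of 7.48e-05 for RPTOR and 2.50e-06 for PABPC4 (edgeR). DHPS, which makes the first step of hypusine on eIF5A, was lower by -0.55 ± 0.09 (SE) on the log2 scale (adjusted p = 4.77e-05 by edgeR).

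PDCD4, a protein that blocks eIF4A helicases, was lower by -0.23 ± 0.09 (SE) on the log2 scale, with overlapping libraries and an adjusted p of 0.0413 by edgeR. DENR and MCTS1, partners in ribosome recycling and reinitiation that resemble EIF2D when joined, were not called, at 0.15 and -0.02. In a list of 12 elongation and termination factors, 4 were called lower (33.3%, beside 23.2% of all genes) and 1 higher (8.33%, beside 22.1%). The largest changes on the log2 scale were those of EEF1A2, a tissue-restricted form of the elongation factor that brings tRNA to the ribosome (-0.89), EEF1E1, a scaffold of the tRNA synthetase complex (-0.82), the release factor GSPT2 (0.73) and EEF2K, the kinase that inhibits eEF2 (-0.27). All 4 passed the test, with adjusted p from 1.29e-06 to 0.00945 (edgeR).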

How the data were processed

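Per the submitters' processing notes, reads were handled with fastp, HISAT2 and HTSeq on hg38. The annotation, strand setting and treatment time are not given in the sources used here. OE Biotech analysed the data for the authors, who name DESeq. The authors deposited raw counts per gene, and FPKM values made from the same counts by gene length and library total. Groups and replicate numbers came from the labels. The test was edgeR 4.0.16 (R 4.3.3) with filterByExpr at a minimum count of 10 and total of 15, TMM, the quasi-likelihood test with group as the only term, and Benjamini-Hochberg adjustment over 15095 genes. Intervals are at 95%.

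The members, gene lists and tests were chosen with earlier results of these data known. Values per library are given for DEGs, for up to 8 called members per direction by size of change with a mean of at least 5 CPM, for the EIF4EBP genes and for the members of 7 ratios. One ratio was not computed, since it needs a gene not analysed here. From each list of non-members, the 4 called genes with the largest change were named, plus PDCD4, DENR and MCTS1. One cell type marker is not reported here. Ratios of FPKM were compared with two-sided exact permutation tests over 20 regroupings, whose smallest p is 0.1. The ratios EIF4G2 to EIF4G1, EIF2S3 to EIF2S2 and EIF4EBP1 to EIF4EBP2 were added after seeing the data, as was the sum of near-identical copies. The last of these ratios is not printed.

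Start codons and exon overlaps came from GENCODE 29, and gene positions and promoters from RefSeq on GRCh38.p14. The fit was checked on simulated data with known changes of 2-fold or more and the same spread for all genes. Those changes are larger than any among the tested members, so the check does not bear on calls of their size. Alternatives were DESeq2 1.42.0, DESeq2-type size factors, library totals, no filter, limma 3.58.1 on log2(FPKM + 1) and log2(FPKM + 0.1), a block for the replicate number, and dropping each library in turn. The sequencing depth was even, and a count of 0 allows up to 3 counts, for counting error only. Tables were made in Python 3.11.15 with pandas 2.3.3 and drawn with matplotlib 3.10.9.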

Additional observations from a re-analysis of the deposited data

How the results depend on the processing

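The count of members called lower, 11, was 7 with library totals, 5 with limma on log2(FPKM + 1), 6 on log2(FPKM + 0.1) and 7 with the replicate block, and 6 to 12 with each library left out (6 without control replicate 2 and without hyperoside replicate 1). The count called higher, 2, was 8 with library totals, 6 with either form of FPKM, and 2 to 6 with each library left out (6 without control replicate 1). Elongation and termination factors called lower were 2 (without hyperoside replicate 1) to 5 with each library left out, from 4, and those called higher were 2 with library totals, from 1. The median log2 fold change of all genes, 0.00 in the fit reported, was 0.05 with library totals and with FPKM + 0.1, and 0.03 with FPKM + 1. The cause of the other changes was not tested.

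The replicate block left 9 of the 13 calls, all shared, and dropped EIF3D, EIF2S3, EIF1 and EIF5A. Deviations of libraries with the same number correlated at -0.08, -0.03 and -0.03, so the number did not pair them.

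In 10 members that were not called the sign of the log2 fold change turned. With library totals, FPKM + 1 and FPKM + 0.1 it was 0.0083, 0.0065 and 0.0065 for EIF1B, 0.0114, 0.0113 and 0.0114 for EIF3H, 0.0189, 0.0176 and 0.0177 for EIF4B, and 0.0012, 0.0025 and 0.0025 for EIF6. With each library left out it ranged from -0.077 to 0.117 for EIF1AX, -0.081 to 0.0175 for EIF1B, -0.025 to 0.136 for EIF2B1, -0.0068 to 0.088 for EIF2B5, -0.0094 to 0.388 for EIF3CL, -0.0379 to 0.138 for EIF3G, -0.0506 to 0.0143 for EIF4B, -0.0606 to 0.0869 for EIF4ENIF1 and -0.103 to 0.0281 for EIF6.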
